A study of Mus musculus with 6 samples.

Results

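The epidermal growth factor (EGF) family was examined through 10 genes: the ligands Ereg, Areg, Hbegf, Tgfa, Btc, Epgn, Egf and Nrg1 and the receptors Egfr and Erbb2. Members were taken by gene symbol, with every probe set that the array annotation assigns to them. For 9 of the 10 genes this gave 19 of the 45101 probe sets of the array. Areg was not analysed here, since no probe set carried its symbol. The tissue was colon of C57BL/6 mice aged 6 to 8 weeks, all of which had received ethanol by rectal injection 24 h before harvest. The groups were GPR41 KO (the receptor gene Ffar3), GPR43 KO (Ffar2) and wild type (WT), with 2 arrays each, and both receptors sense short-chain fatty acids. Ethanol was common to all groups and colon without it was not analysed here, so every comparison is between genotypes after injury. Neither the extent of the deletions nor the origin of a group's arrays in different animals is stated in the labels, so the p-values measure the spread between these arrays only.

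EGF family ligands are made as membrane-anchored precursors that metalloproteases cut free. The released ligand binds an ErbB receptor, receptors pair, and their kinases switch on the RAS-MAP kinase and PI3 kinase routes. Erbb2 has no known ligand of its own and acts as a partner of the other receptors. In intestine the pathway is known for driving epithelial cells to cover a wound and divide, and ligands come from epithelial, stromal and myeloid cells.

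Values are MAS5 signals, 1 per probe set and array on a linear scale, and levels of different probe sets are not set against each other. The series had these features that bear on the family. Ffar2 was not low in the library labelled GPR43 KO replicate 1, where its brighter probe set gave 1598. That probe set gave 189.0 in GPR43 KO replicate 2, 1857 and 1933 in GPR41 KO, and 1194 and 1118 in WT. No probe set named the gene of GPR41. The first principal component of all tested genes placed WT at -24.6 and -44.1 and the 4 arrays labelled KO between 11.2 and 20.1. The epithelial markers, all 12 of them measured, summed to 298847 and 283789 in GPR41 KO, to 321384 and 296753 in GPR43 KO and to 227411 and 266895 in WT, and the tissue label was borne by Epcam signals of at least 29737 in every array. Precision is set by the few arrays, and with 2 against 2 the smallest two-sided p of an exact permutation test is 0.333. Fewer cells of a type and less RNA per cell cannot be told apart in such pieces of tissue.

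Of the 9 measured genes, Ereg was the member that passed the test in both KO groups against WT, and it was lower in each. Epgn, its neighbour on chromosome 5, was lower in all 4 arrays labelled KO but weak. No other ligand and neither receptor passed. By its brightest probe set Tgfa was higher than WT in all 4 arrays labelled KO. Hbegf, also by its brightest, and the weak Nrg1 were higher than WT in both GPR41 KO arrays. In limma, 7 of the 9 genes lay above the filter on weak genes (the 40th percentile of mean log2 signal, a signal of about 126), and Epgn and Nrg1 lay below it. In GPR41 KO the 7 split into 1 that fell, 0 that rose and 6 that missed the threshold, where 4.96% of all 10916 genes tested passed (3.11% as lower and 1.85% as higher). The split in GPR43 KO was the same, 1 lower, 0 higher and 6 not past the threshold, against 3.96% of all genes (2.41% as lower and 1.55% as higher). A gene passed where its p, after Benjamini-Hochberg adjustment across the 10916 genes, lay under 0.05. The median log2 fold change over the 7 came to 0.093 for GPR41 KO and -0.047 for GPR43 KO, and over all genes it was 0.00057 and 0.030. The arrays of GPR41 KO stood apart from WT in 3 of the 7 genes, 2 higher and 1 lower, against 49.9% of all genes (24.6% higher and 25.3% lower). In GPR43 KO this also held for 3 of the 7, 2 higher and 1 lower, against 50.6% of all genes (27.7% higher and 22.9% lower). Both comparisons use the same WT arrays and are not independent of each other.

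**Figure D1:**
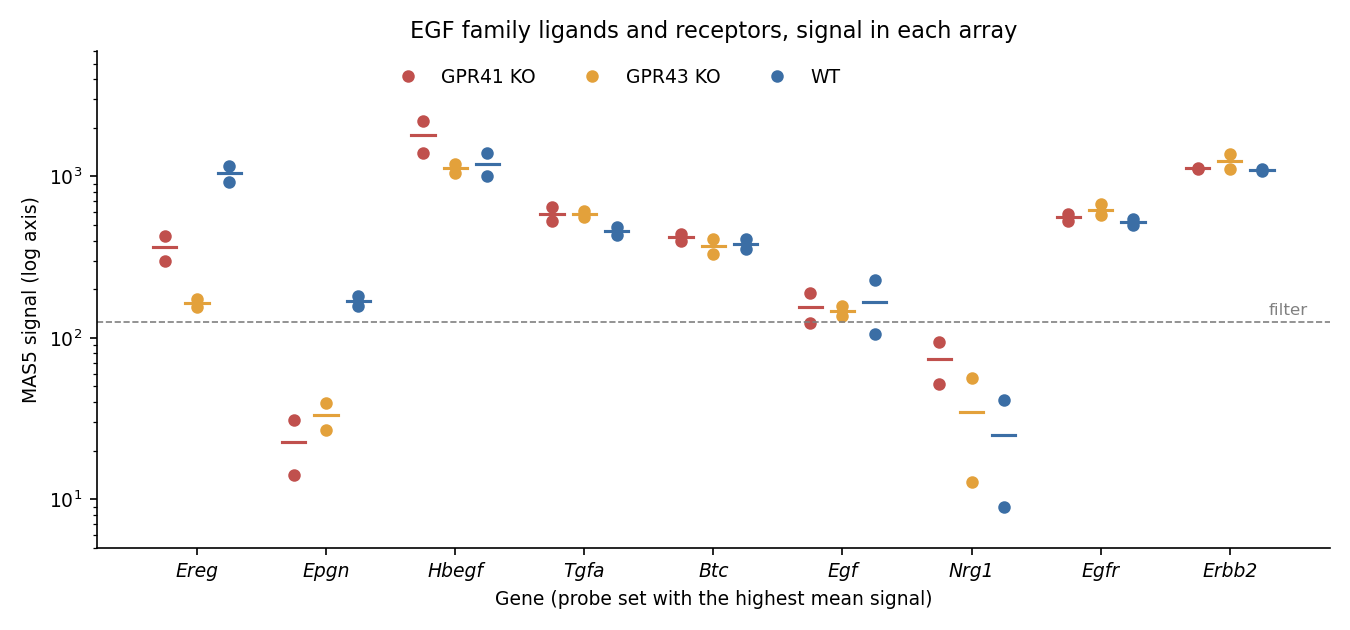
MAS5 signal (log axis) of the 9 measured EGF family genes in each of the 6 arrays, using the probe set with the highest mean signal. Points are arrays, short bars are the means of 2 arrays, colours are the groups and the dashed line is the filter at a signal of 126. Ereg stood at 428.6 and 297.8 in GPR41 KO, at 173.8 and 154.5 in GPR43 KO and at 918.9 and 1166 in WT, and Epgn was below the line in every array labelled KO.

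Ereg encodes epiregulin, a ligand of Egfr and Erbb4 that macrophages, fibroblasts and epithelium make under inflammation. Its single probe set, 1419431_at, gave 428.6 and 297.8 in GPR41 KO, 173.8 and 154.5 in the libraries labelled GPR43 KO, and 918.9 and 1166 in WT. All 4 arrays labelled KO thus lay below both WT arrays, and the GPR43 KO arrays lay below the GPR41 KO arrays as well. The mean was 34.8% of the WT mean in GPR41 KO and 15.7% of it in GPR43 KO. The log2 fold change, on the scale of log2 of signal plus 18, was -1.49 ± 0.23 in GPR41 KO (SE, n = 2 per group, limma, adjusted p = 0.00716). In GPR43 KO it was -2.53 ± 0.23 (limma, adjusted p = 0.00135). Without GPR41 KO replicate 2 the fall in GPR41 KO was -1.24 and its call was lost (adjusted p = 0.053). With the library labelled GPR43 KO replicate 1 left out, the change in GPR43 KO was -2.61 (adjusted p = 0.00406). With GPR43 KO replicate 2 left out it was -2.46 (adjusted p = 0.00826).

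Among the probe sets kept for the genes, that of Ereg also differed most between the KO groups of those tested. GPR43 KO had 45.2% of the GPR41 KO signal, a log2 difference of -1.05 ± 0.23 with a 95% interval of -1.56 to -0.53. Its unadjusted limma p was 0.00139 and its adjusted p was 0.766. No gene passed in this comparison: limma called 0 of the 10916 genes (0%), 596 had an unadjusted p under 0.05 (5.46%), and 2 of the 7 tested members, Ereg and Hbegf, were among these. The KO groups did not overlap in 2 of the 7 genes, again Ereg and Hbegf and both lower in GPR43 KO, against 37.8% of all genes (14.8% lower). Whether Ereg differs between the KO groups is thus not settled at this number of arrays.

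Epgn encodes epigen, a ligand of Egfr with low affinity that is known mostly from skin. Its probe set 1449994_at gave 14.1 and 31.0 in GPR41 KO, 27.0 and 39.3 in the libraries labelled GPR43 KO, and 156.3 and 181.5 in WT. Both KO groups lay below both WT arrays and overlapped each other. The mean was 13.4% of the WT mean in GPR41 KO and 19.6% of it in GPR43 KO. These ratios of weak signals are unstable. In the fit over all 45037 probe sets that are not array controls, with no filter, the log2 fold change was -2.23 ± 0.44 in GPR41 KO (limma, adjusted p = 0.0592) and -1.88 ± 0.44 in GPR43 KO (limma, adjusted p = 0.126). In the fit over genes without the filter it passed in GPR41 KO (adjusted p = 0.0258) and not in GPR43 KO (adjusted p = 0.0619). The call for Epgn therefore depends on which features are tested together.

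Epgn, Ereg, Areg and Btc follow each other along chromosome 5 in the RefSeq table of GRCm38.p6, with the CXC chemokine genes on the side of Epgn. The neighbours were looked at after the values of Ereg and Epgn had been seen. Among the 5 protein-coding genes on that side, Cxcl2 and Cxcl1 fell in both KO groups and Cxcl15 lay below the filter, with overlapping arrays. Cxcl2 stood at 48.7 or less in every array labelled KO, under the filter, and at 12296 or more in WT, through which it was tested. With signals under the filter raised to it, Cxcl2 was at least 125-fold lower in each KO group by mean log2 signal. The test was run on the signals before raising, and Cxcl2 passed in both groups (limma, adjusted p = 1.2e-05 and 1.94e-05). Cxcl1 had a log2 fold change of -2.13 in GPR41 KO and -1.77 in GPR43 KO (limma, adjusted p = 0.00285 and 0.00851). The call of Cxcl1 in GPR43 KO was lost without GPR43 KO replicate 2 (adjusted p = 0.0574). Mthfd2l, a mitochondrial folate enzyme that lies between the chemokines and Epgn, was at -0.46 and -0.23 and did not pass in either group (limma, adjusted p = 0.219 and 0.549). Every array labelled KO lay below both WT arrays for Mthfd2l too. On the other side Btc, Parm1 and Rchy1 had log2 fold changes between -0.047 and 0.35 and none passed.

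**Figure D2:**
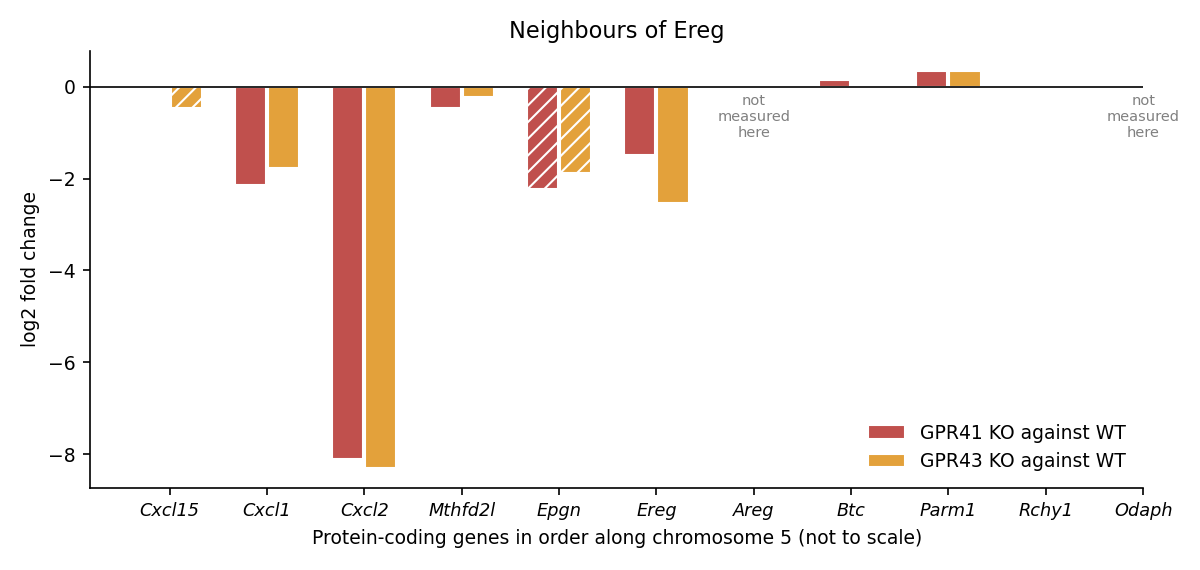
Log2 fold change against WT for the 5 protein-coding genes on each side of Ereg, in their order along chromosome 5 and not to scale, from the fit over genes with no filter. Red bars are GPR41 KO, yellow bars GPR43 KO, and hatched bars are genes below the filter. The lowest values were those of Cxcl1, Cxcl2, Epgn and Ereg. Mthfd2l between them was lower by less, at -0.46 and -0.23, and Btc had 0.14 and -0.047.

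The promoters of Epgn and Btc are shown because these neighbouring ligand genes lay on different sides of the result, Epgn lower in all arrays labelled KO and Btc not. Each runs from 250 bases before to 50 after the start of the gene, read 5′ to 3′ on the gene's strand (RefSeq, GRCm38.p6), and capitals mark a match to the core of the cyclic AMP response element, TGACG, on either strand. Epgn lies at chr5:91027267-91027566 on the plus strand and Btc at chr5:91402945-91403244 on the minus strand.
Epgn: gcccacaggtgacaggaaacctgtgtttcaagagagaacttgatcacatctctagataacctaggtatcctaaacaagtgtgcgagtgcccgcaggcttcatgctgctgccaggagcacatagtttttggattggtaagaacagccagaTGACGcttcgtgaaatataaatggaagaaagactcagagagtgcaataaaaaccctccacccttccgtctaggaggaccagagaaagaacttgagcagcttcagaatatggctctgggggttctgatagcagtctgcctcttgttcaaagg
Btc: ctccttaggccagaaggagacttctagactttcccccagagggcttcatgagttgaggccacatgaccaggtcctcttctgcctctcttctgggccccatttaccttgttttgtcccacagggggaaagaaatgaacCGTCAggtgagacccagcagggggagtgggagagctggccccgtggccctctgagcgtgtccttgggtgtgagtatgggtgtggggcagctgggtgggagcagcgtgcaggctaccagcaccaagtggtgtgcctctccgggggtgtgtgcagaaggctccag
Each held 1 such match, on the plus strand at position -101 in Epgn and on the minus strand at position -113 in Btc, counted from the gene start. Of the other members with a promoter available, Areg held 3 matches, Erbb2 held 1, and Tgfa, Egf and Egfr held none. In Areg the plus-strand match at position -61 and the minus-strand match at -58 overlapped each other. The remaining Areg match lay apart, at -115 on the minus strand, so its 3 matches are not 3 separate sites. TGACG occurred in 20.8% of the 32851 promoters of this length. No match to the AP-1 site TGANTCA (7.81% of promoters), to the NF-kB site (4.51%) or to the CArG box (1.63%) was in the promoter windows of the 7 members that the table holds, which do not include Ereg, Hbegf and Nrg1. No overlapping matches of different motifs occurred, and a match in these letters is a description only.

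The other ligands that pass through Egfr did not pass the test in either KO group. Hbegf, the heparin-binding ligand that stress and wounding induce in epithelium, gave 2216 and 1404 in GPR41 KO, 1197 and 1047 in the libraries labelled GPR43 KO, and 1003 and 1388 in WT, by its brighter probe set 1418350_at. Both GPR41 KO arrays lay above WT, 1 of them by a narrow margin, and GPR43 KO overlapped WT. The log2 fold change in GPR41 KO was 0.57 ± 0.23 (limma, unadjusted p = 0.036, adjusted p = 0.216), and it was 0.25 without GPR41 KO replicate 1. In GPR43 KO it was -0.074 ± 0.23 (adjusted p = 0.898), and its sign turned with a mean over both probe sets (0.028). The second probe set, 1418349_at, overlapped between all groups, with 628.4 and 426.1 in GPR41 KO, 400.7 and 440.1 in GPR43 KO, and 292.4 and 497.7 in WT.

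Tgfa, transforming growth factor alpha, the ligand that normal gut epithelium carries, was slightly higher in both KO groups. Its brightest probe set 1421943_at gave 641.5 and 531.3 in GPR41 KO, 563.6 and 607.2 in the libraries labelled GPR43 KO, and 485.2 and 435.0 in WT. All 4 arrays labelled KO were above both WT arrays. The log2 fold change was 0.33 ± 0.17 in GPR41 KO (95% interval -0.057 to 0.73, limma, adjusted p = 0.336) and 0.34 ± 0.17 in GPR43 KO (95% interval -0.054 to 0.73, limma, adjusted p = 0.319). The probe sets did not go the same way: 1450421_at gave 136.6 and 152.9 in GPR41 KO, 152.7 and 213.3 in GPR43 KO, and 162.0 and 158.3 in WT, so that GPR41 KO lay below WT there. The weakest, 1421942_s_at, ranged from 11.4 to 79.4 over the 6 arrays.

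Btc, betacellulin, a ligand of Egfr and Erbb4, gave 442.1 and 398.5 in GPR41 KO, 408.7 and 329.0 in the libraries labelled GPR43 KO, and 353.0 and 408.3 in WT with probe set 1435541_at. The groups overlapped, with log2 fold changes of 0.14 ± 0.20 in GPR41 KO and -0.047 ± 0.20 in GPR43 KO (limma, adjusted p = 0.748 and 0.923). The mean over both probe sets turned the first of these to -0.37, because the weak probe set 1421161_at was lower in GPR41 KO: it gave 28.8 and 44.8 in GPR41 KO, 30.6 and 70.3 in GPR43 KO, and 114.4 and 58.1 in WT. Egf itself, made chiefly by salivary gland and kidney, lay near the filter, at 123.7 and 188.5 in GPR41 KO, 157.6 and 137.2 in GPR43 KO, and 227.4 and 105.3 in WT. The WT arrays spanned all the KO values, and no direction could be read for Egf (log2 -0.024 ± 0.37 and -0.075 ± 0.37), whose sign in GPR41 KO turned with quantile normalization (0.096) and median centring (0.071). Nrg1, neuregulin, a ligand of Erbb3 and Erbb4, was weak in every array, with 52.0 and 94.8 in GPR41 KO, 12.8 and 56.4 in GPR43 KO, and 8.93 and 41 in WT. Its probe set 1456524_at had a log2 fold change of 1.16 ± 0.60 in GPR41 KO and 0.27 ± 0.60 in GPR43 KO (limma over probe sets, adjusted p = 0.559 and 0.924).

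The receptors did not pass either. Egfr is read by 7 probe sets. The brightest, 1460420_a_at, gave 532.5 and 584.6 in GPR41 KO, 575.2 and 670.1 in the libraries labelled GPR43 KO, and 541.9 and 503.1 in WT. GPR41 KO overlapped WT and GPR43 KO lay just above it. The log2 fold change was 0.093 ± 0.16 in GPR41 KO (95% interval -0.28 to 0.47, limma, adjusted p = 0.809) and 0.24 ± 0.16 in GPR43 KO (95% interval -0.13 to 0.62, limma, adjusted p = 0.463). The mean over its probe sets turned the value in GPR41 KO to -0.27. Much of that came with 1454313_at, a weak probe set that gave 17.3 and 38.3 in GPR41 KO, 115.4 and 65.3 in GPR43 KO, and 98.5 and 122.6 in WT. There GPR41 KO lay below both other groups, with a log2 fold change against WT of -1.52 ± 0.45 (limma over probe sets, unadjusted p = 0.00873, adjusted p = 0.232), while the other 6 probe sets of Egfr had values from -0.17 to 0.093. Between the KO groups it differed by 1.24 ± 0.45, higher in GPR43 KO (limma over probe sets, unadjusted p = 0.0234, adjusted p = 0.919), more than Ereg did. Which transcript this probe set reads was not examined.

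Erbb2, the partner receptor, had the smallest SE of the members. Its probe set 1424919_at gave 1110 and 1131 in GPR41 KO, 1372 and 1108 in the libraries labelled GPR43 KO, and 1118 and 1084 in WT. The KO groups overlapped WT. The log2 fold change was 0.025 ± 0.15 in GPR41 KO (95% interval -0.31 to 0.36, limma, adjusted p = 0.95) and 0.16 ± 0.15 in GPR43 KO (95% interval -0.17 to 0.49, limma, adjusted p = 0.591).

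**Figure D3:**
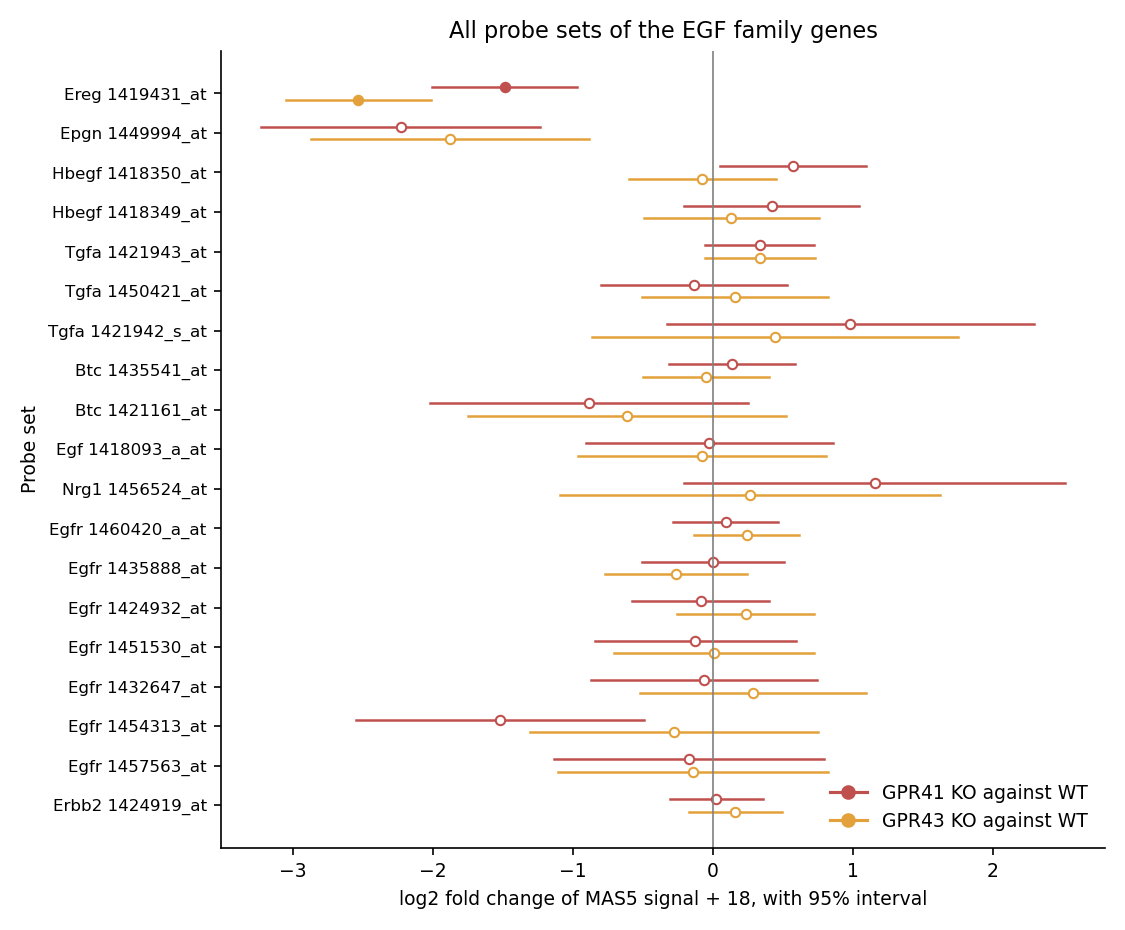
Log2 fold change against WT (MAS5 signal plus 18) with 95% interval for all 19 probe sets of the 9 measured genes, from limma over all probe sets. Red is GPR41 KO, yellow is GPR43 KO, and filled points passed an adjusted p of 0.05. The Ereg probe set was the only filled one in each group, at -1.49 and -2.53, and the Epgn probe set was at -2.23 and -1.88.

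Over the 19 probe sets, 1 was lower past the threshold in GPR41 KO, where 1.06% of all probe sets passed (0.748% as lower), and 1 was lower in GPR43 KO, where 0.762% passed (0.553% as lower). None was higher past it in limma. In each case this was the Ereg probe set. At this level the call in GPR41 KO was fragile: it was lost when any array other than WT replicate 1 was left out (0 probe sets passed), while in GPR43 KO 1 passed whichever array was left out. The arrays of GPR41 KO did not overlap WT in 9 of the 19 probe sets, against 40.8% of all probe sets. Those of GPR43 KO did not overlap WT in 7, against 40.4% of all probe sets. Both counts are near the background, so separation of the arrays alone says little about the family.

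The pathway around the members was described with lists chosen with earlier results of these data known. Of the other ligands and receptors, Erbb3, the kinase-poor receptor of neuregulins, was the 1 gene of 5 above the filter. It gave 3709 and 4126 in GPR41 KO, 5463 and 4758 in GPR43 KO, and 4312 and 3932 in WT, with both GPR43 KO arrays above WT. Erbb3 had a log2 fold change of -0.074 in GPR41 KO and 0.31 in GPR43 KO (limma, adjusted p = 0.802 and 0.227), and a mean over its probe sets turned both (0.054 and -0.18), as did median centring for the first (0.021). Erbb4, Nrg2, Nrg3 and Nrg4 lay below the filter, and Erbb4 was between 3.17 and 18.1 in all arrays.

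Among 11 tested genes of ligand shedding and trafficking, 1 fell in each KO group, 0 rose and 10 did not pass, against 4.96% and 3.96% of all genes, and with medians of -0.023 for GPR41 KO and -0.16 for GPR43 KO. The gene that fell was Adam8, a metalloprotease of leukocytes, at 111.3 and 107.7 in GPR41 KO, 122.4 and 64.7 in GPR43 KO, and 764.0 and 1440 in WT. All its KO signals lay under the filter, so it was tested through WT. It passed in both groups on the signals before raising (limma, adjusted p = 0.0022 and 0.00203). With signals raised to the filter it was at least 8.33-fold lower in each KO group by mean log2 signal. Adam17, the main protease that releases Ereg, Hbegf and Tgfa, was picked for its role after its values were seen. It gave 890.1 and 951.1 in GPR41 KO, 786.1 and 828.8 in GPR43 KO, and 857.8 and 1019 in WT, a log2 fold change of -0.023 and -0.21 (limma, adjusted p = 0.957 and 0.485), the first of which was 0.072 with median centring. Tmed5 (-0.51 and -0.45), a cargo receptor of the secretory route, and Rhbdf2 (-0.79 and -0.53), the partner that carries Adam17 to the cell surface, did not pass. Without WT replicate 1, Rhbdf2 passed in GPR41 KO, at -1.05 (adjusted p = 0.048).

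Of 18 tested signal transducers, 0 passed in limma in either KO group, with medians of 0.0020 and 0.037. Those with the smallest p in either comparison were Stat3, a transcription factor downstream of many cytokine receptors (-0.50 in GPR41 KO and -0.69 in GPR43 KO, limma, adjusted p = 0.129 and 0.0522), the RAS protein Nras (-0.44 and -0.28, limma, adjusted p = 0.137 and 0.33), Map2k1, the kinase MEK1 (0.41 and 0.47, limma, adjusted p = 0.157 and 0.113), and the adaptor Grb2 (-0.35 and -0.49, limma, adjusted p = 0.293 and 0.149). Without WT replicate 1, Stat3 passed in both groups (-0.67 and -0.86, adjusted p = 0.0455 and 0.0161) and Grb2 in GPR43 KO (-0.72, adjusted p = 0.0249).

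Of 18 tested genes listed as feedback inhibitors of the pathway, 1 fell in each KO group, 0 rose and 17 did not pass, with medians of 0.16 and 0.15. The list also held Lgr5 and Znrf3, which belong to the Wnt pathway. They did not pass, had values from 0.14 to 0.39 and are part of these counts and medians. A count of 1 in 18 is near the share of all genes called, 4.96% in GPR41 KO and 3.96% in GPR43 KO. It was Dusp5, a nuclear phosphatase of the kinases ERK1 and ERK2, which gave 266.3 and 227.5 in GPR41 KO, 154.2 and 169.4 in GPR43 KO, and 634.6 and 906.3 in WT. All arrays labelled KO lay below WT, and those of GPR43 KO below those of GPR41 KO. On the log2 scale it was at -1.56 in GPR41 KO (limma, adjusted p = 0.00646) and -2.11 in GPR43 KO (limma, adjusted p = 0.00208), and leaving out GPR41 KO replicate 2 ended the first call (adjusted p = 0.0508). Errfi1, which binds and blocks Egfr, was at -0.10 and -0.51 (limma, adjusted p = 0.81 and 0.181). Rasa1 and Spred2, which restrain RAS, had values from 0.31 to 0.42 and did not pass.

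Among 16 tested genes known to be induced through Egfr, GPR41 KO had 3 lower, 1 higher and 12 not past the threshold, with a median of -0.15. Of all genes 3.11% passed as lower and 1.85% as higher there. In GPR43 KO 3 fell, 0 rose and 13 did not pass, with a median of -0.48, against 2.41% of all genes lower and 1.55% higher. Those that fell in each group were Ptgs2, the inducible prostaglandin synthase, Plaur, the urokinase receptor (-2.59 in GPR41 KO, -2.51 in GPR43 KO) and the early response gene Ier3 (-2.40 and -2.74). Ptgs2 stood at 114.0 or less in every array labelled KO, under the filter, and at 1304 or more in WT, through which it was tested. It passed in both groups on the signals before raising (limma, adjusted p = 0.000744 and 0.00109). With signals raised to the filter it was at least 10.4-fold lower in each KO group by mean log2 signal. Leukocytes under inflammation also make these transcripts, so the list does not measure Egfr activity alone. Leaving out the library labelled GPR43 KO replicate 1 ended the call of Plaur in GPR43 KO (adjusted p = 0.0552). Without WT replicate 1, 6 genes of the list passed in GPR43 KO. Fos, an immediate early transcription factor, went the other way in GPR41 KO: it gave 9175 and 5910 there, 4166 and 4616 in GPR43 KO, and 3391 and 3848 in WT. Its log2 fold change of 1.02 in GPR41 KO passed (limma, adjusted p = 0.0197), but not without GPR41 KO replicate 1 (0.71, adjusted p = 0.0923) or without the intensity trend (adjusted p = 0.0697).

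**Figure D4:**
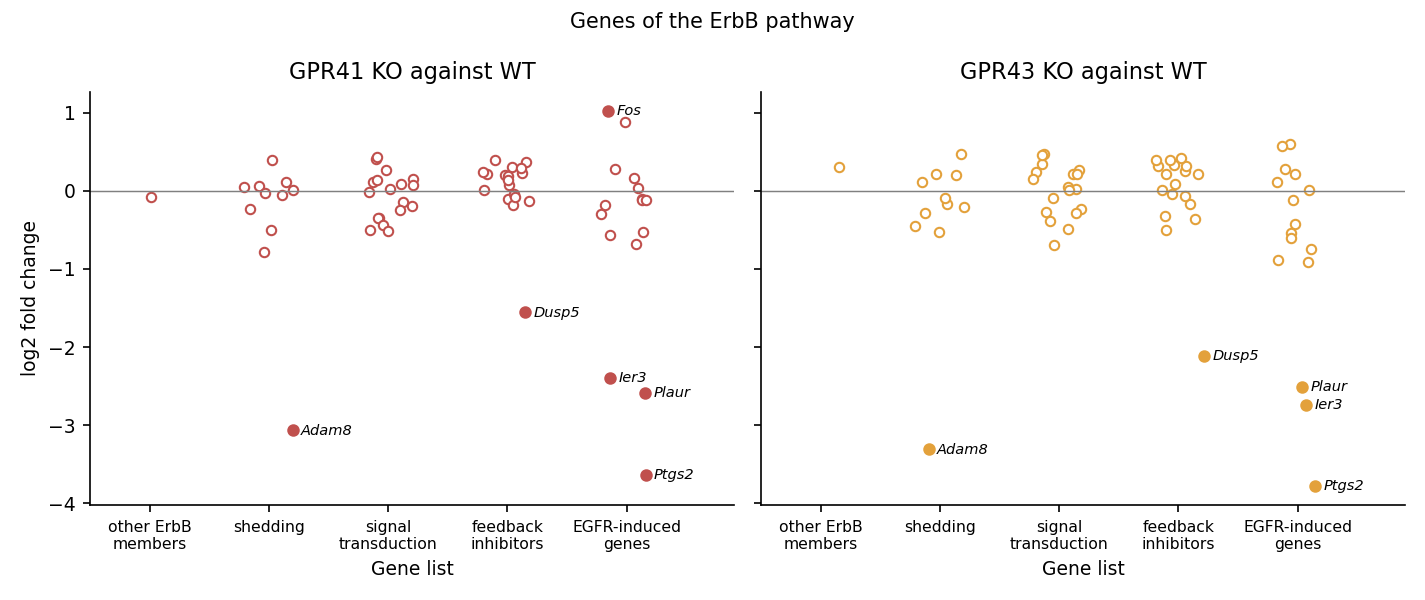
Log2 fold change of each tested gene of 5 lists around the ErbB receptors, in GPR41 KO against WT (left) and GPR43 KO against WT (right). Each point is a gene, spread sideways at random, and filled and named points passed an adjusted p of 0.05. Most points lay within 1 of zero, and the named ones were Adam8, Dusp5, Ier3, Plaur and Ptgs2 on both sides and Fos on the left.

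The genes whose pattern over the 6 arrays was most like that of Ereg were found by the root mean square difference of log2 signal after centring each gene on its own mean, among the 10916 tested genes. Dusp5 was nearest, at 0.25, followed by Adamts4, a protease of matrix proteoglycans, at 0.36, and the transcription factor Nfil3 at 0.37. Adamts4 gave 82.6 and 87.1 in GPR41 KO, 67.7 and 62.6 in GPR43 KO, and 343.6 and 480.7 in WT. All its KO signals lay under the filter, so it was tested through WT. Nfil3 gave 301.4 and 326.0 in GPR41 KO, 280.3 and 194.1 in GPR43 KO, and 917.8 and 1682 in WT. Each of the 3 genes had its highest signal in WT replicate 2, as Ereg did.

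**Figure D5:**
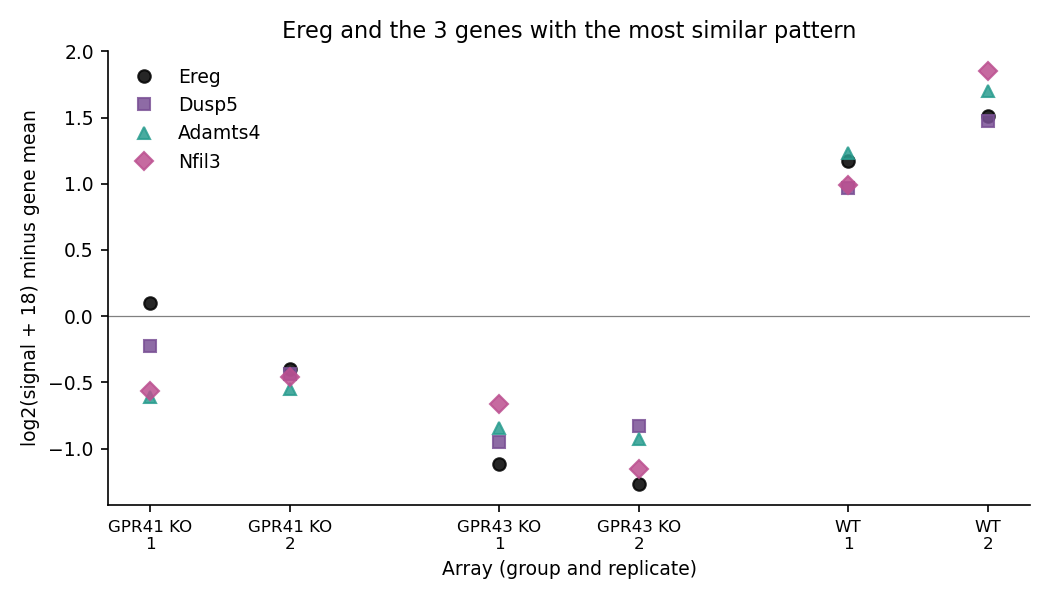
Log2 of signal plus 18, minus each gene's mean over the 6 arrays, for Ereg and the 3 tested genes nearest to it (root mean square difference of 0.25 to 0.37). Points are single arrays, ordered by group. All 4 genes were highest in the WT arrays, with WT replicate 2 above WT replicate 1.

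Against WT, markers of several cell types were lower in both KO groups, as Ereg was. Between the KO groups the macrophage sum went the other way from Ereg, with both GPR43 KO arrays above both GPR41 KO arrays. The neutrophil sum did so only by a narrow margin, with GPR43 KO replicate 2 at 1150 and GPR41 KO replicate 1 at 1145. Beside the counts below, 3.11% of all genes tested were called lower and 1.85% higher in GPR41 KO. In GPR43 KO these shares were 2.41% and 1.55%. The 10 measured neutrophil markers summed to 1145 and 913.1 in GPR41 KO, 3190 and 1150 in GPR43 KO, and 76518 and 138498 in WT. All 8 of them that were tested fell in each KO group. Of these, Mmp8, Ngp and Clec4e lay under the filter in every array labelled KO. Il1r2 and Csf3r did so in all but GPR43 KO replicate 1. These genes were tested through WT, so the filter in part fixed the direction of this count. The 12 macrophage and monocyte markers summed to 14897 and 18761 in GPR41 KO, 22092 and 19764 in GPR43 KO, and 34078 and 54428 in WT. In each KO group 6 of the 12 fell, while C1qa and Mrc1 did not pass. Itgam was among those that fell and was also tested through WT, since it lay under the filter in every array labelled KO. The fibroblast and stromal markers overlapped, at 38536 and 48924 in GPR41 KO, 49963 and 51751 in GPR43 KO, and 44722 and 63549 in WT, and none of the 10 passed in limma. The squamous epithelium markers, relevant to Epgn, summed to 2870 and 1904 in GPR41 KO, 3027 and 1805 in GPR43 KO, and 4016 and 7956 in WT. Of these 13 measured markers 4 lay above the filter, with list medians of -1.62 and -1.46. Of these 4, Sbsn (-1.95) and Dmkn (-2.12) fell in GPR41 KO and Dmkn (-2.59) fell in GPR43 KO. Sbsn lay under the filter in every array labelled KO but GPR43 KO replicate 1, so it was tested through WT. The keratins of the list lay below the filter by their mean and did not go the same way. Krt5 lay between 17.9 and 62.6, with overlapping groups. Krt14 was higher in all arrays labelled KO, at 97.1 and 111.7 in GPR41 KO, 110.8 and 85.8 in GPR43 KO, and 53.4 and 51.2 in WT. Krt13 was lower in all of them, at 54.6 and 26.7 in GPR41 KO, 74.1 and 44.3 in GPR43 KO, and 186.4 and 149.5 in WT. No other keratin of the list stood on the same side of WT in both KO groups. The smooth muscle markers summed to 102242 and 118671 in GPR41 KO, 134250 and 113314 in GPR43 KO, and 80955 and 92856 in WT, and 1 and 2 of the 8 rose. The neuron and glia markers summed to 4018 and 4920 in GPR41 KO, 6076 and 4420 in GPR43 KO, and 6750 and 8958 in WT, and 1 and 0 of the 7 tested fell. The endothelial markers summed to 1773 and 2067 in GPR41 KO, 2390 and 2364 in GPR43 KO, and 2473 and 3066 in WT, and 1 and 0 of the 7 tested fell. In these 3 lists every array labelled KO stood on the same side of both WT arrays. Of the epithelial markers 1 of 12, Vil1, rose in GPR41 KO and 0 in GPR43 KO, and of 2 tested mast cell markers none passed in limma. Markers of type 2 innate lymphoid and regulatory T cells all lay below the filter. No marker was at 0. The part of these cell types in the lower signals of Ereg, Epgn, Dusp5 and Adam8 was not tested.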

How the data were processed

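Total RNA of 6 mouse colon samples was labelled with biotin and read on 1 Affymetrix mouse array each. The deposited values are intensities, made by the authors with MAS5, per the submitters' processing notes (version not given in the sources used here). They are linear and already scaled: leaving out the lowest and highest 2% of probe sets, the mean was 500 in each array. Groups came from the sample titles.

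Of 45101 probe sets, 64 were array controls, and of the others 34945 carried 1 gene symbol, 932 several and 9160 none. Symbols were updated by Entrez identifier through RefSeq. The probe set with the highest mean log2 signal stood for each of 18193 genes, and the 10916 above the 40th percentile were tested. A gene near background in 1 group thus entered only if it was high in another. A pseudocount of 18 (20th percentile) was added before log2, which limits folds of weak signals. The 3 group means were estimated together from the 6 arrays by limma 3.58.1 in R 4.3.3 (lmFit, eBayes with trend), with 3 residual degrees of freedom, 8.71 after sharing the spread between genes. Tests were two-sided with Benjamini-Hochberg adjustment, and errors after ± are SE of the fit. The same fit over 45037 probe sets had no filter. The procedure was tested on simulated data.

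The members and lists were chosen with earlier results of these data known. Named genes were the members, up to 4 genes with the smallest p of each pathway list, the 3 genes most like each called member, and marker genes. A search for EGF-like motifs in ligand proteins was planned but not run. Alternatives were chosen for pseudocount, scaling, filter, probe set choice, model and arrays left out. The same alternatives for genes other than the members were added after seeing the data.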

Additional observations from a re-analysis of the deposited data

How the results depend on the processing

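Of 348 fold changes of tested members over the alternatives, 325 kept direction and side of the threshold, 1 lost its call (Ereg in GPR41 KO without GPR41 KO replicate 2) and 22 turned sign, none of them past the threshold. The count of members past the threshold was 1 in GPR41 KO against WT. It became 2 with no filter (Ereg and Epgn) and 0 with the filter at the 60th percentile, where Ereg was not tested, and leaving out an array gave 0 to 1. The count of 1 in GPR43 KO became 0 at the 60th percentile for the same reason. With the replicate number as a replicate block the counts stayed at 1, 1 and 0, with adjusted p = 0.0178 and 0.00368 for Ereg in limma. The block changed no call. Correlations of deviations between same-numbered arrays were 0.107 (GPR41 KO and WT), -0.271 (GPR43 KO and WT) and -0.0537 (both KO groups). The labels do not say whether same-numbered arrays belong together, and so few arrays cannot settle it.

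Over all probe sets, the count of 1 in GPR41 KO became 2 with 4 times the 20th percentile as pseudocount, where Epgn passed (-1.35, adjusted p = 0.0374). It became 0 with a floor or without the intensity trend, as did the count of 1 in GPR43 KO, and these fits called 0 to 8 of all 45037 probe sets. Leaving out an array gave 0 to 1 in GPR41 KO.

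Signs that turned in GPR41 KO against WT were Egf (0.096 with quantile normalization, 0.071 with median centring, -0.52 to 0.47 without single arrays), Btc (-0.37) and Egfr (-0.27) with the mean over probe sets, Erbb3 (0.021 with median centring, 0.054 with that mean, -0.15 to 0.0027 without single arrays), Adam17 (0.072 with median centring, -0.14 to 0.099 without single arrays) and Errfi1 (-0.33 to 0.12). In GPR43 KO against WT they were Hbegf (0.028 with the mean over probe sets, -0.30 to 0.16 without single arrays), Erbb3 (-0.18), Egf (-0.57 to 0.42) and Btc (-0.20 to 0.10). Between the KO groups they were Tgfa (-0.022 with quantile normalization, -0.093 with median centring, -0.082 with the mean over probe sets, -0.13 to 0.13 without single arrays), Btc (0.043), Egf (-0.32 to 0.22) and Erbb2 (-0.017 to 0.29). The causes were not tested. A group with 1 array left is assumed to vary like the others. Epgn, Nrg1 and the weakest probe sets of Tgfa, Btc and Egfr lay under the filter of about 126 and have larger SE. The lower bounds for Cxcl2, Adam8 and Ptgs2 were chosen after seeing the data.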

Other observations

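Some genes of the list of Egfr-induced genes lay below the filter and were not tested, yet differed widely, and these were chosen after their values were seen. Il11, a cytokine of the gp130 family that stromal cells make in injured tissue, gave 43.0 and 92.3 in GPR41 KO, 14.3 and 12.7 in GPR43 KO, and 413.9 and 1507 in WT. Lif, another cytokine of that family, gave 56.6 and 81.4 in GPR41 KO, 124.2 and 66.7 in GPR43 KO, and 156.4 and 296.2 in WT. For both genes all arrays labelled KO lay below both WT arrays, and WT replicate 2 was the highest.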
